A study of Mus musculus with 19 samples.

Results

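Control bone marrow-derived macrophages (BMDM) of a mouse hypergravity study were collected in 2 sets, and the comparison reported here is the difference between those sets with no gravity treatment on either side. It covers 5 of the 19 libraries of the series, namely the 2 BMDM controls with the mark 3W in their titles and the 3 BMDM controls without it, and every gene of the table. The libraries were chosen by title, so no measured value entered the choice. All 5 are labelled as C57bl/6 (C57BL/6) bone marrow macrophages from normally fed mice, and the protocol gives 0 G for controls against centrifugation at 15 G for 15 min in the hypergravity mice, over about 1 or 3 weeks. Cells were grown with 20 ng/ml M-CSF, the growth factor that drives marrow precursors into macrophages. The 3 libraries without the mark carry no duration of their own and are called the 1 week set here, because their titles follow the pattern of the 1 week hypergravity libraries. Set and duration therefore cannot be told apart, and neither can mouse age, culture round or library preparation, none of which the labels give. Nothing states whether replicates came from separate mice or cultures, and the spread that the p-values measure may be technical.

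Marrow cultures in M-CSF start from a mixture of stem cells, progenitors, granulocytes and megakaryocytes, and macrophages come to dominate as the other cells die, detach or differentiate. Cultured macrophages also hold adjustable programmes: interferons switch on antiviral genes through dedicated transcription factors, CIITA switches on class II antigen presentation, and amino acid or endoplasmic reticulum stress acts through ATF4 on amino acid synthesis and transport genes. In bulk RNA, fewer cells of a type and less RNA per cell cannot be told apart.

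The libraries held 18.35 to 31.21 M counts (1e6 counts) in the 1 week set and 20.15 to 20.36 M in the 3 week set, so that the floor of 3 counts equalled 0.0961 to 0.164 on the scale of counts per 1e6 (CPM). Counting error alone enters the intervals and the floor. Within the 1 week set, replicate 3 stood apart. The variance between libraries was 8.83 times that of counting for replicates 1 and 2, but 64.4 and 34.7 times for replicate 3 against each of them. It was 5.10 times for the 2 libraries of the 3 week set. Counts of called genes are therefore given with and without replicate 3. Without it, 12.7% of all tested genes were called higher and 10.7% lower. These shares are the background for each list count of that fit below. The mitochondrially encoded share of counts was 1.38% ± 0.0132 (SD, n = 3) in the 1 week set and 1.59% ± 0.0311 (SD, n = 2) in the 3 week set, without overlap (exact two-sided permutation p = 0.2, the smallest that the 10 possible splits allow). Its genes were counted unevenly. In the 1 week set COX1 and CYTB had means of 7452 and 2048 CPM, but COX2, COX3 and ATP6 had 13.35, 6.02 and 3.90 CPM. The share may therefore be incomplete.

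The macrophage label was borne out by the markers in both sets. Csf1r, the M-CSF receptor, stood at 2094, 2402 and 2793 CPM in 1 week replicates 1 to 3 and at 2001 and 2183 CPM in the 3 week replicates. Adgre1, which encodes F4/80, ran from 1441 to 1982 CPM and stood at 1898 and 1944 CPM. Cd68 ran from 1430 to 1612 CPM and stood at 1581 and 1660 CPM. The sets overlapped for each of these 3 genes and none was called. Of 19 tested macrophage identity genes, 2 fell and none rose, with a median log2 difference of -0.04. They were Lyz2, which encodes lysozyme (log2 -0.51 ± 0.08 SE, adjusted p = 0.00726), and Cd300a, an inhibitory receptor (log2 -0.40 ± 0.07, adjusted p = 0.0193). Without replicate 3, 3 rose and 3 fell, where 12.7% of all genes were called higher and 10.7% lower. Among them was Itgam, which encodes CD11b (log2 0.56, adjusted p = 0.000322).

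The edgeR fit and its count filter used all 9 BMDM libraries, the hypergravity libraries included. Some tested genes, such as Btbd16, were therefore at 0 in all 5 controls. Of 13842 genes tested with edgeR, 549 (3.97%) were called at an adjusted p below 0.05 (Benjamini-Hochberg adjustment). In the 3 week set, 215 (1.55%) were higher and 334 (2.41%) were lower, and the median log2 difference of all genes was -0.002. These shares are the background for each list count of the fit with all 5 control libraries. The unadjusted p was below 0.05 for 2654 genes, and DESeq2 called 850. The count rested heavily on single libraries. Without 1 week replicate 3 it was 3222 (23.5%), of which 1748 (12.7%) were higher and 1474 (10.7%) lower, and 548 of the 549 genes were among them. It was 306 without 1 week replicate 2, 39 without 3 week replicate 1 and 91 without 3 week replicate 2, where the lone remaining library is assumed to vary like the other groups. A fit of the 5 controls alone called 148 (1.12% of 13206 tested), of which 141 were among the 549. No gene of the 549 changed sign in any alternative tried. Of the 71 called genes named by rule, the call ended for 52 without 3 week replicate 1, for 47 at a tested log2 difference of at least 1, for 34 without 3 week replicate 2, for 27 with the controls alone, for 13 without 1 week replicate 2 and for 12 with all 19 libraries. Another 4 alternatives ended 1 or 2 calls each. It held under every alternative for 13, namely Itga2b, Prg2, Chil3, Plac8, Ctla2a, Cd74, Ly6c2, S100a8, Timp3, Hbb-bs, Hba-a1, Gp5 and Slfn1. The larger differences were falls: at a tested log2 difference of at least 1, 43 genes were lower and 8 were higher. With library size alone as the scaling, the split of called genes was 252 higher and 268 lower, or 48.5% higher in place of 39.2%. Across 13173 genes with an exonic length, the log2 difference had a Spearman rho of 0.167 with length, given as a description, and the part of length in single calls was not tested beyond the alternative that removes its trend (896 genes called).

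**Figure D1:**
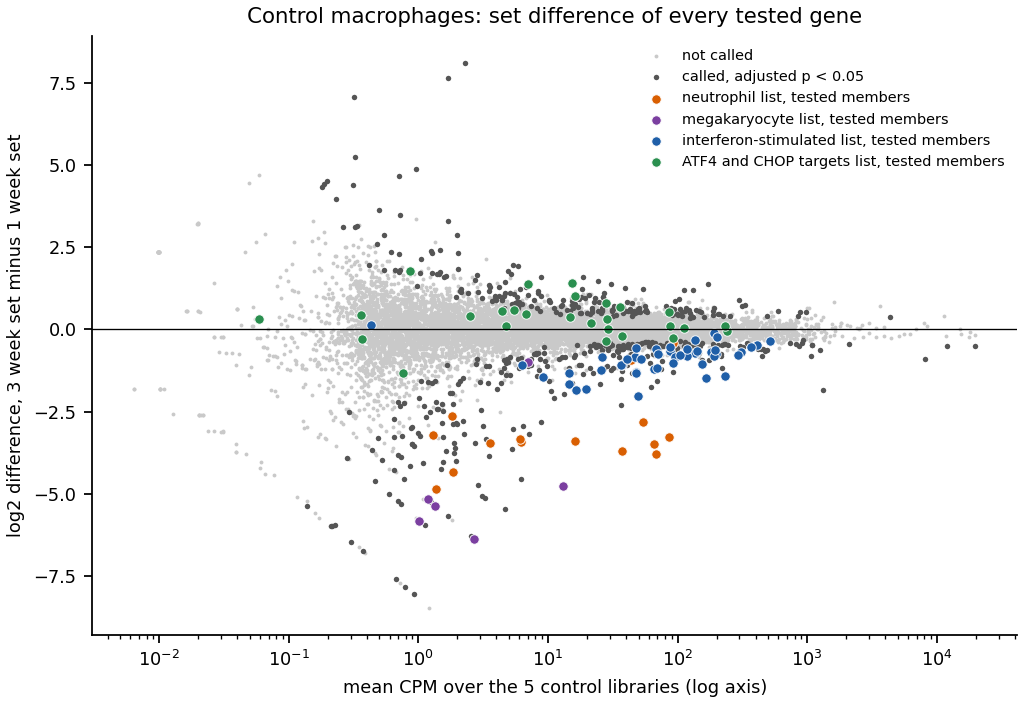
Log2 difference (3 week set minus 1 week set) of each of the 13842 tested genes against its mean CPM over the 5 control libraries (log axis); dark points are called at an adjusted p below 0.05 and colours mark 4 gene lists. Megakaryocyte and neutrophil genes lie far below 0, interferon-stimulated genes lie mostly between 0 and -2, and the called ATF4 targets lie above 0.

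Genes of megakaryocytes, the platelet-forming cells of marrow, showed the largest falls. Of 9 listed genes, 6 were tested, 5 fell and none rose, with a median log2 difference of -5.27 against -0.002 over all genes. Itga2b (chr11:102453297-102470122; positions are those of GENCODE on mm10), which encodes the integrin chain CD41 of megakaryocytes and early progenitors, stood at 14.6, 24.0 and 25.1 CPM in 1 week replicates 1 to 3 and at 0.786 and 0.794 CPM in the 3 week replicates. The sets were far apart, and the log2 difference was -4.77 ± 0.36 (adjusted p = 0.000636). The hypergravity libraries, given as a description, split by set as well, at 32.1 and 32.1 CPM in the 1 week set and 0.969 and 0.291 CPM in the 3 week set. Other called members had so few counts in the 3 week set that ratios are given with exact counting intervals. Gp5, a subunit of the platelet receptor for von Willebrand factor, had 301 counts in the 1 week set and 2 in the 3 week set, a ratio of 87.9 (95% interval 24.1 to 729). Gp9, another subunit of that receptor, had 152 against 2 counts, a ratio of 44.4 (12.1 to 370). Gp6, the platelet collagen receptor, had 128 against 2 counts, a ratio of 37.4 (10.1 to 312). The 3 ratios had intervals that overlap each other. With 2 counts each in the 3 week set, these genes passed the count filter through other libraries and could only be called lower. The count of falls and the median of this list are partly fixed by that. The same holds, in either direction, for tested members of other lists with at most 3 counts in a set. All 6 tested members were called lower without 1 week replicate 3, and 2 and 4 were called without 3 week replicates 1 and 2.

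The summed level of the megakaryocyte list was 30.8, 47.1 and 43.5 CPM in the 1 week set and 4.96 and 6.11 CPM in the 3 week set. Pf4, the platelet chemokine that defines the lineage, was at 0 to 0.109 CPM in the 1 week set and 0.0496 to 0.197 CPM in the 3 week set and did not pass the filter, and Ppbp had 13 counts in the 1 week set against 0. In RefSeq promoters (mouse assembly GRCm38.p6, 250 bases before to 50 after the start), the letters AGATAA of a GATA factor site, searched on both strands (TTATCT on the other), occurred in 2 of 5 tested megakaryocyte genes with an entry and in 2 of 6 tested mast cell and basophil genes, against 8.05% of 9830 tested genes. GATA factors drive both lineages. A called gene of each list with a match is shown to place the sites, with the matched letters in capitals; a match is a description and not a bound site, and the promoter of Itga2b held none.
Gp5 (chr16:30310732-30311031, minus strand): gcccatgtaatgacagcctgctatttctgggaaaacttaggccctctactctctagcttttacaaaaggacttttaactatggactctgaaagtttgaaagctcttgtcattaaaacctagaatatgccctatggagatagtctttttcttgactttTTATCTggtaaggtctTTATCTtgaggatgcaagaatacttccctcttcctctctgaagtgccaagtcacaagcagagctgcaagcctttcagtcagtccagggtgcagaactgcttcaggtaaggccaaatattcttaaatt
Cpa3 (chr3:20242132-20242431, minus strand): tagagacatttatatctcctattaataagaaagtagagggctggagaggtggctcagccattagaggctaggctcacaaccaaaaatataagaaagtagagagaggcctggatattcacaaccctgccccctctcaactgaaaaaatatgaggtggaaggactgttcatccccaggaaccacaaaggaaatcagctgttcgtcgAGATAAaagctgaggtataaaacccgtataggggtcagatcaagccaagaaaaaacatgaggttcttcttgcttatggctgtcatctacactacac

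Granulocyte genes fell almost as a block. Of 15 tested neutrophil genes, 14 fell and none rose, with a median log2 difference of -3.38. S100a9 (chr3:90692632-90695721), a subunit of the calprotectin complex, stood at 143, 83.3 and 178 CPM in the 1 week set and at 8.79 and 19.9 CPM in the 3 week set. The sets did not overlap, and the lowest 1 week library lay well above the higher 3 week library (log2 -3.27 ± 0.42, adjusted p = 0.00365). Ngp, a granule protein of immature neutrophils, stood at 98.6, 61.4 and 149 CPM against 5.31 and 13.7 CPM (log2 -3.48 ± 0.45, adjusted p = 0.00365). Ltf, which encodes lactoferrin, stood at 52.0, 36.3 and 88.9 CPM against 2.70 and 6.70 CPM (log2 -3.69 ± 0.46, adjusted p = 0.00314). In each of these 3 genes 1 week replicate 2 was the lowest of its set and 3 week replicate 1 the lower of its pair. Camp, an antimicrobial peptide of the same granules, stood at 10.8, 5.72 and 12.6 CPM against 0.147 and 1.74 CPM, and Lcn2, which encodes lipocalin 2, at 24.1, 14.6 and 37.3 CPM against 1.43 and 3.57 CPM. Both were called (adjusted p = 0.0144 and 0.00488). Chil3, which encodes the lectin Ym1 and is expressed by neutrophil precursors and by alternatively activated macrophages, stood at 91.0, 70.4 and 164 CPM against 5.90 and 10.1 CPM (log2 -3.80 ± 0.38, adjusted p = 0.00121).

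The summed neutrophil list came to 660, 512 and 939 CPM in the 1 week set and to 139 and 183 CPM in the 3 week set. Ly6g, its defining surface marker, had 13 counts over the 1 week set and 0 over the 3 week set. All 15 tested members were called lower without 1 week replicate 3, 2 without 3 week replicate 1 and 10 without 3 week replicate 2. The part that leftover granulocyte or megakaryocyte RNA has in the other differences was not tested.

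Progenitor and monocyte genes showed the same direction, with 9 of 17 tested lower, none higher and a median of -2.86. The summed list nearly met between the sets, at 349.5, 364.2 and 423.1 CPM in the 1 week set and 330.0 and 348.8 CPM in the 3 week set. Its sum thus fell far less than those of the neutrophil and megakaryocyte lists. Elane, neutrophil elastase of promyelocytes, stood at 6.09, 4.80 and 5.85 CPM against 0.491 and 0.546 CPM (log2 -3.46 ± 0.42, adjusted p = 0.00274). Mpo, myeloperoxidase, stood at 9.23, 7.58 and 11.8 CPM against 0.884 and 1.04 CPM (log2 -3.34 ± 0.41, adjusted p = 0.00302). Both are made by granulocyte and monocyte precursors. Elane, Mpo and Prtn3 are also on the neutrophil list, and Kit is on the mast cell and basophil list. The counts and sums of these lists therefore share genes. Ly6c2, the surface protein of inflammatory monocytes, stood at 10.96, 6.81 and 11.8 CPM against 1.43 and 1.24 CPM (log2 -2.94 ± 0.28, adjusted p = 0.000936), and Plac8, a protein of immature myeloid cells, at 8.36, 6.00 and 10.8 CPM against 0.590 and 0.794 CPM (log2 -3.64 ± 0.33, adjusted p = 0.000936). The sets did not overlap in any of these 4 genes, which the rule that named Mpo and Plac8 had asked for. Cd34, the stem and progenitor antigen, fell by 1.31 on the log2 scale (adjusted p = 0.0187), and Myb, a progenitor transcription factor, fell by 2.86 (adjusted p = 0.0202). Ccr2 and Cx3cr1 did not pass the test. Ccr2, the receptor for CCL2 on inflammatory monocytes, stood at 51.2 to 61.4 CPM against 54.9 and 55.9 CPM (log2 -0.08, adjusted p = 0.833), and Cx3cr1, the fractalkine receptor, at 7.30 to 8.91 CPM against 12.03 and 11.22 CPM (adjusted p = 0.204). Without 1 week replicate 3, 12 members fell and 1 rose, and 2 and 5 fell without 3 week replicates 1 and 2.

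Lists of other lineages held fewer called genes, with 1 of 4 tested eosinophil, 3 of 6 mast cell and basophil, 1 of 5 B cell, 2 of 10 endothelial and 1 of 28 stromal genes lower and none higher. The summed endothelial list was 190 to 228 CPM in the 1 week set and 231 and 269 CPM in the 3 week set. Without 1 week replicate 3, 2, 4, 2, 4 and 1 genes of these lists were lower, and 1 endothelial and 2 stromal genes were higher. Prg2, the major basic protein of eosinophil granules, stood at 12.8, 7.52 and 9.78 CPM against 0.393 and 0.496 CPM (log2 -4.54 ± 0.43, adjusted p = 0.000936). It was the one called gene of 4 tested eosinophil genes. Of 6 tested mast cell and basophil genes, 3 fell, namely Prss34, a basophil protease (log2 -3.62 ± 0.43, adjusted p = 0.00274), Hdc, which makes histamine (log2 -2.87 ± 0.36, adjusted p = 0.00338), and Cpa3, a mast cell protease whose promoter is printed above, with 76 against 1 count (ratio 44.4, 95% interval 7.73 to 1775). Jchain, the immunoglobulin joining chain of plasma cells, fell by 3.25 (adjusted p = 0.0214). Pecam1 and Esam, which endothelial cells and megakaryocytes share, fell by 1.18 and 2.96 (adjusted p = 0.0146 and 0.0143). Of 4 tested T and NK cell genes none was called by edgeR or DESeq2, and 0 had an unadjusted p below 0.05, while Nkg7, a granule protein of these cells that did not pass the count filter, had 38 against 1 count (ratio 22.2, 95% interval 3.75 to 899). Among 28 tested stromal and matrix genes only Timp3, a metalloproteinase inhibitor, was called, at 9.97, 14.5 and 16.1 CPM against 1.72 and 2.23 CPM (log2 -2.81 ± 0.26, adjusted p = 0.000936), and Col1a1 was not (7.11 to 17.4 CPM against 3.98 and 9.68 CPM, adjusted p = 0.276). Leaving out 3 week replicate 1 or 2 leaves a lone library in that set. In each case the eosinophil, the stromal and the mast cell and basophil lists still held a lower call. The endothelial list did so only without 3 week replicate 2, and the B cell list in neither case.

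**Figure D2:**
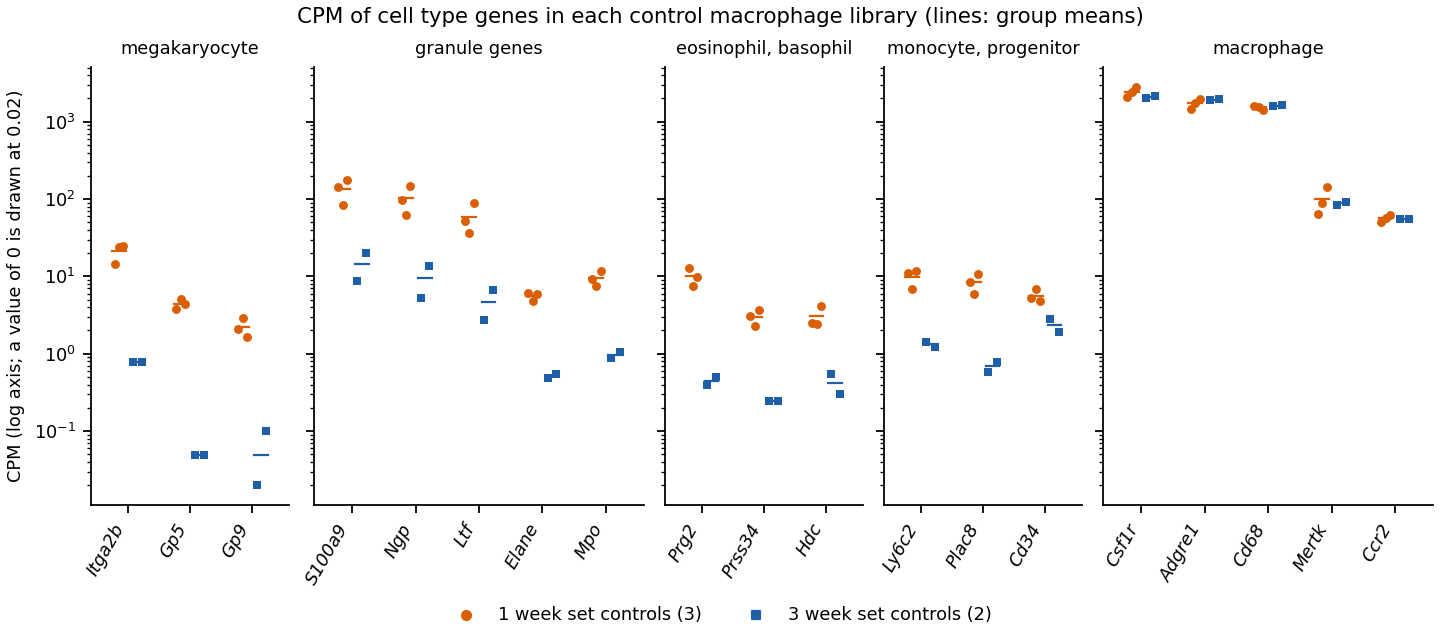
CPM (log axis, a value of 0 drawn at 0.02) of 19 cell type genes in each control macrophage library, with circles for the 3 libraries of the 1 week set, squares for the 2 of the 3 week set and lines for group means. Genes of other marrow lineages separate by set, Itga2b at 14.6 to 25.1 against 0.786 and 0.794 CPM, whereas Csf1r, Adgre1, Cd68, Mertk and Ccr2 overlap between sets.

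Interferon-stimulated genes were lower in the 3 week set. Of 46 tested members, 21 fell and none rose, with a median log2 difference of -0.83. Oasl1 (chr5:114923240-114937915), a member of the oligoadenylate synthetase-like family that restrains IRF7 translation, stood at 23.5, 27.4 and 31.5 CPM in the 1 week set and 5.75 and 10.3 CPM in the 3 week set (log2 -1.81 ± 0.21, adjusted p = 0.00274). Gbp3, a guanylate-binding protein of cell-autonomous defence, stood at 59.0, 49.2 and 79.1 CPM against 24.5 and 27.1 CPM (log2 -1.32 ± 0.17, adjusted p = 0.00365). Irf1 (chr11:53770014-53778374), a transcription factor downstream of interferon gamma, stood at 109, 108 and 126 CPM against 63.1 and 68.9 CPM (log2 -0.84 ± 0.09, adjusted p = 0.0021). In these genes the sets did not overlap, and 1 week replicate 3 was the highest of the 5. Ifit3, an antiviral tetratricopeptide protein, stood at 189, 141 and 331 CPM against 70.6 and 92.0 CPM (log2 -1.48 ± 0.30, adjusted p = 0.0267). Usp18, which removes ISG15 and dampens interferon signalling, stood at 58.5, 48.9 and 80.8 CPM against 24.5 and 28.1 CPM (log2 -1.30 ± 0.18, adjusted p = 0.00564). Irf7, the amplifier of type I interferon, stood at 168, 140 and 274 CPM against 84.6 and 107 CPM (log2 -1.06 ± 0.25, adjusted p = 0.046). Slfn1, a Schlafen family gene that the list did not hold, stood at 45.4, 42.1 and 71.9 CPM against 8.69 and 13.7 CPM (log2 -2.29 ± 0.27, adjusted p = 0.00262).

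The spread that replicate 3 added was large for this list. Without it, 38 of 46 members were called lower and none higher, at a median of -0.65. The unadjusted p was below 0.05 for 41 members with all 5 libraries, each lower. Of the members called there and not with all 5 libraries, Isg15 and Mx1 had log2 differences of -0.83 and -0.90 with all 5. The fit of the controls alone called 5 members lower, where 0.81% of all genes were called lower, and leaving out 3 week replicate 1 or 2 left 1 and 3. The members not called in either fit included Igtp, with a log2 difference of 0.13.

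The promoters of these genes are known for the interferon-stimulated response element. Its letters, taken as GAAA, any 2 bases and GAAA again, were searched on both strands (TTTC, any 2 bases and TTTC on the other) and occurred in 23 of the 34 tested list members that have a RefSeq entry (67.6%), in 8 of 16 members called lower, and in 391 of 9830 tested genes (3.98%). The promoters of Ifit3 and of Gbp3 are shown because both genes were called and each window holds 2 matches, which overlap in Gbp3. That of Oasl1 held none. Capitals mark the matched letters, and Gbp3 has a second RefSeq start whose window held none.
Ifit3 (chr19:34583279-34583578, plus strand): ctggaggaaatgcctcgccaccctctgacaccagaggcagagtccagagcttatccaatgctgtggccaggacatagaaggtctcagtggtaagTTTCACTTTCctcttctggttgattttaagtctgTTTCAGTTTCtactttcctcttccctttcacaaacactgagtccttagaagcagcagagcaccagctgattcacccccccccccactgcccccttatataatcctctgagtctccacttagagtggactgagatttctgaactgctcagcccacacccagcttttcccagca
Gbp3 (chr3:142559794-142560093, plus strand): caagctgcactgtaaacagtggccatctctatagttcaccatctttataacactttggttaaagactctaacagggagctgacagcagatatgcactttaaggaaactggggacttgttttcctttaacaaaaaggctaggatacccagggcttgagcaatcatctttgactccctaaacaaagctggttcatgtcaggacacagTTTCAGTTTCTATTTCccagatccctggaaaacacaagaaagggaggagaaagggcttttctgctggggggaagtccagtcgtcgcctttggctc

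Class II antigen presentation genes were lower as well. Cd74 (chr18:60803848-60812652), the invariant chain that escorts class II molecules, stood at 2057, 1974 and 1495 CPM in the 1 week set and at 484 and 580 CPM in the 3 week set (log2 -1.84 ± 0.18, adjusted p = 0.000936). Ciita (chr16:10480059-10528418), the master regulator of class II genes, stood at 36.1, 46.7 and 64.0 CPM against 16.4 and 18.9 CPM (log2 -1.51 ± 0.25, adjusted p = 0.0113). For Cd74 replicate 3 was the lowest of the 1 week set and for Ciita the highest, and the sets overlapped for neither. H2-Aa, a class II alpha chain, fell by 2.45 (adjusted p = 0.00314) and H2-Ab1, a class II beta chain, by 1.94 (adjusted p = 0.0139). H2-Eb1 stood at 1.54 to 1.92 CPM against 0.54 and 3.33 CPM and was not called (adjusted p = 0.949). Of 13 tested class II and dendritic cell genes 4 fell and none rose, at a median of -1.11. Without replicate 3 it was 5, without 3 week replicate 1 or 2 it was 1 and 2. The H2 counts may be incomplete, since 101 of 153 protein-coding genes between 35000000 and 40000000 on chromosome 17 (66.0%, against 20.2% of all protein-coding genes) were at 0 in every library of the series.

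Interferon-stimulated genes moved the other way in the second cell type. Its libraries are labelled bone marrow mesenchymal stem cell (BMSC), but the macrophage genes Csf1r and Lyz2 stood there at 1028 to 1443 CPM and 17840 to 21940 CPM over the 5 controls, beside the stromal gene Col1a1 at 546 to 3208 CPM, and the labels give these libraries a protocol for growing macrophages. BMSC below means the libraries so labelled. In the BMSC controls, a fit of all 19 libraries called 45 of the 46 members higher in the 3 week set (814 of 15550 genes, 5.23%, were called higher), at a median log2 difference of 2.13. Oasl1 stood at 6.95, 1.71 and 4.04 CPM in the 1 week BMSC controls and at 45.6 and 71.2 CPM in the 3 week BMSC controls (log2 3.84, adjusted p = 7.42e-06). Slfn1 stood at 5.03, 2.30 and 2.66 CPM against 38.8 and 50.1 CPM (log2 3.80, adjusted p = 2.12e-06). In both genes the direction was opposite to that in BMDM. The difference between the set effects of the cell types, tested as an interaction, was called negative (lower in BMDM relative to BMSC) for 45 of 46 members, at a median of -2.96, against 787 of 15550 genes (5.06%) called negative. It was -5.69 for Oasl1 (adjusted p = 1.02e-05) and -6.12 for Slfn1 (adjusted p = 8.12e-07). Irf1 rose by 0.67 in BMSC (adjusted p = 0.000601) and Cd74 by 1.36 (adjusted p = 0.00114), and their interactions were -1.53 and -3.23 (adjusted p = 1.12e-05 and 1.71e-05).

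**Figure D3:**
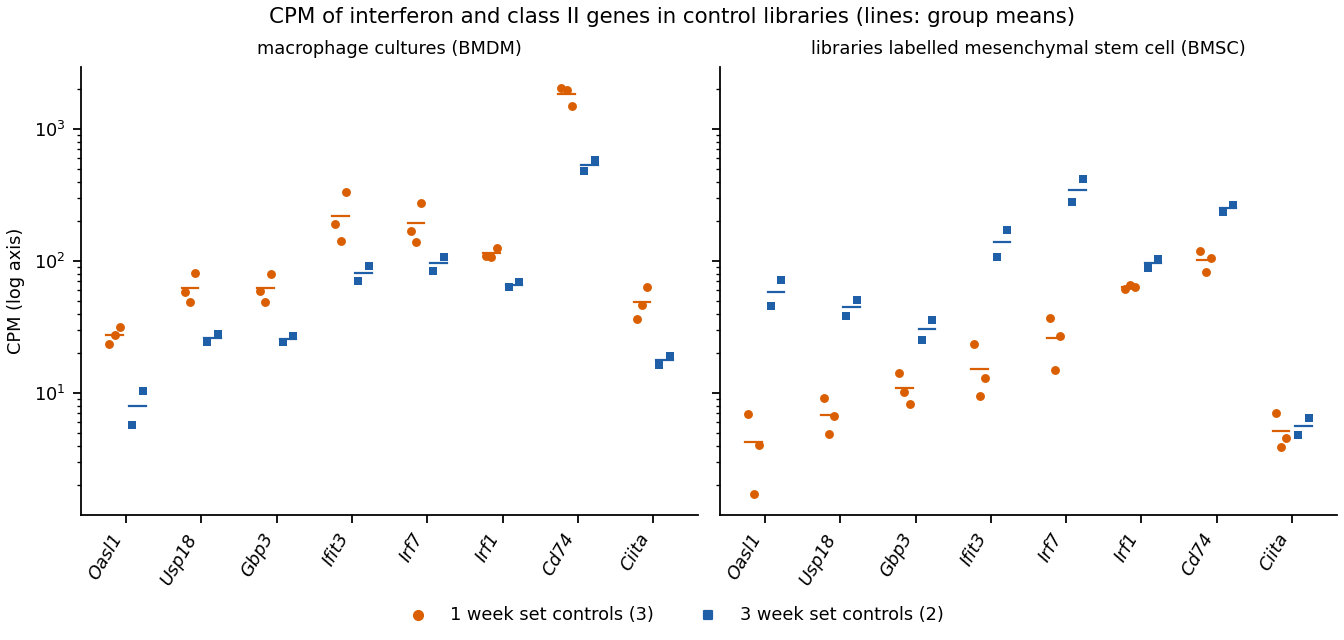
CPM (log axis) of 6 interferon-stimulated genes and of Cd74 and Ciita in each control library of BMDM (left) and BMSC (right), with circles for the 3 libraries of the 1 week set, squares for the 2 of the 3 week set and lines for group means. In BMDM all 8 genes are lower in the 3 week set; in the libraries labelled BMSC, Oasl1 stands at 1.71 to 6.95 CPM in the 1 week set and 45.6 and 71.2 CPM in the 3 week set, and Ciita overlaps.

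Over all genes, calls of the cell types overlapped in part. Of the 549 genes called in BMDM, 166 were also called in BMSC, which is 30.2% of the BMDM calls and 13.04% of the 1273 BMSC calls among the same 13842 genes (9.2%). Of these, 31 were higher and 16 lower in both, 104 were lower in BMDM and higher in BMSC, and 15 were the reverse. The interaction was called for 1231 of 15550 genes (7.92%), 444 positive (2.86%) and 787 negative. In BMSC the log2 difference had a Spearman rho of -0.369 with exonic length over 14739 genes, against 0.167 in BMDM. With the length trend removed, 988 of the 1231 interaction calls and 1034 of the 1373 BMSC calls remained. The part of length in single interactions was not tested further. Neutrophil and megakaryocyte genes did not show the BMDM fall in BMSC: 1 of 17 tested neutrophil genes was lower there and none of 8 megakaryocyte genes, and the interaction was negative for 14 of 17 and 5 of 8. Itga2b stood at 44.9, 53.8 and 44.6 CPM in the 1 week BMSC controls and at 30.4 and 38.9 CPM in the 3 week ones (log2 -0.39, adjusted p = 0.319; interaction -4.42, adjusted p = 1.87e-05). Without 1 week BMDM replicate 3 the interaction was called for 3158 genes, without 3 week BMDM replicate 1 or 2 for 474 and 535, without 3 week BMSC replicate 1 or 2 for 589 and 466, without 1 week BMDM replicate 2 for 783, and without 1 week BMSC replicate 3 for 1919.

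**Figure D4:**
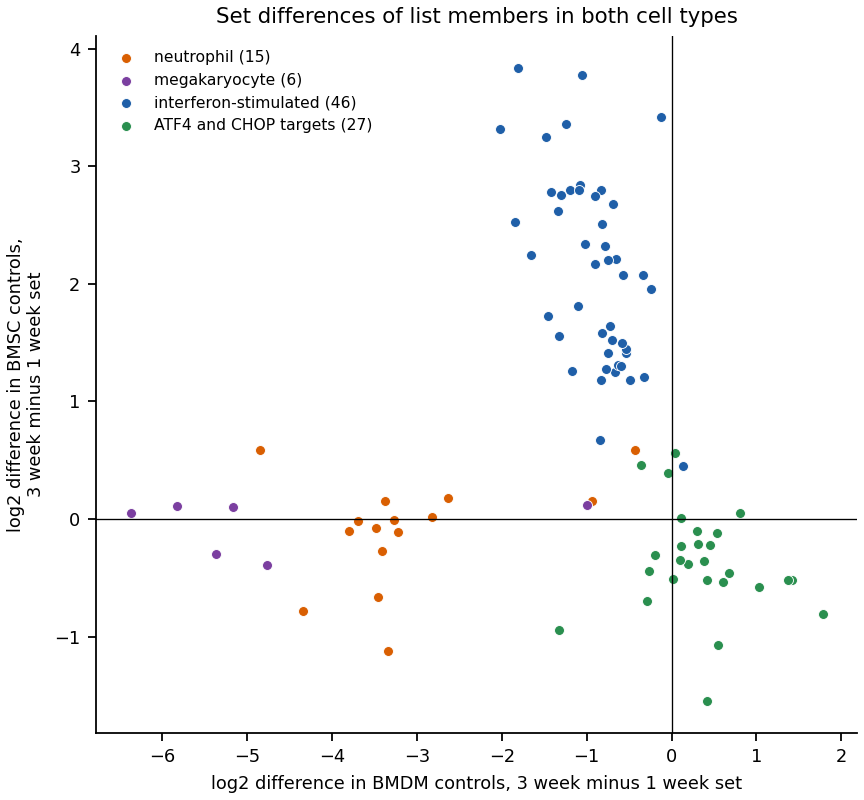
Log2 difference (3 week set minus 1 week set) in BMDM controls, from the fit of 9 BMDM libraries, against that in BMSC controls, from the fit of all 19 libraries, for tested members of 4 gene lists. Interferon-stimulated genes lie at upper left (lower in BMDM, higher in BMSC), and most neutrophil and megakaryocyte genes lie far left near 0 on the BMSC axis.

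Among the genes that rose, targets of the stress factors ATF4 and CHOP formed a group. Of 27 tested members, 7 rose and none fell, at a median log2 difference of 0.31, where 1.55% of all genes were called higher. The fit of the controls alone called 1 member higher and none lower, where 0.31% of all genes were called higher. Asns (chr6:7675169-7693254), asparagine synthetase, stood at 9.81, 9.54 and 7.46 CPM in the 1 week set and at 25.8 and 23.9 CPM in the 3 week set (log2 1.42 ± 0.17, adjusted p = 0.00299). Phgdh, which starts serine synthesis, stood at 5.00, 4.74 and 2.82 CPM against 11.1 and 11.5 CPM (log2 1.37 ± 0.25, adjusted p = 0.0193). Neither overlapped between the sets, as the rule for the largest rises asked, and replicate 3 was the lowest for both. Psat1, the next enzyme of serine synthesis, rose by 0.68 (adjusted p = 0.0429), and Mthfd2, of mitochondrial folate metabolism, by 0.80 (adjusted p = 0.0193). Aars, which charges alanine tRNA, stood at 67.7, 74.1 and 73.3 CPM against 107 and 108 CPM (log2 0.54 ± 0.08, adjusted p = 0.00807). Slc7a1, a transporter of cationic amino acids, rose by 1.03 (adjusted p = 0.0303). Chac1, a glutathione-degrading enzyme, stood at 0.609, 0.273 and 0.353 CPM against 1.82 and 1.29 CPM (log2 1.78 ± 0.38, adjusted p = 0.0319). These 7 genes serve amino acid synthesis, supply or charging, or folate and glutathione metabolism. The count was 9 higher and 2 lower without 1 week replicate 3, 3 higher without 1 week replicate 2, and 0 and 1 higher without 3 week replicates 1 and 2. For the interaction, 6 of 28 members were positive, with Asns at 1.91 (adjusted p = 0.0198).

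ATF4 binds C/EBP-ATF response elements. The letters TGATGNAA, searched on both strands (TTNCATCA on the other), occurred in 8 of 22 tested members with a promoter entry (36.4%), in 3 of 7 called higher (42.9%) and in 286 of 9830 tested genes (2.91%). The promoters of Asns and Chac1, both called, are shown with 1 match each, in capitals.
Asns (chr6:7693160-7693459, minus strand): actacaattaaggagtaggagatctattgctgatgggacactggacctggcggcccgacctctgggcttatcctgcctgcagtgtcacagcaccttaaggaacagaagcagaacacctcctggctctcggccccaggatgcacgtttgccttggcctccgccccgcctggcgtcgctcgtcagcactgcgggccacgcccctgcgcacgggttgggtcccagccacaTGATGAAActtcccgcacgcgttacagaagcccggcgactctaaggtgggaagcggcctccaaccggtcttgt
Chac1 (chr2:119350992-119351291, plus strand): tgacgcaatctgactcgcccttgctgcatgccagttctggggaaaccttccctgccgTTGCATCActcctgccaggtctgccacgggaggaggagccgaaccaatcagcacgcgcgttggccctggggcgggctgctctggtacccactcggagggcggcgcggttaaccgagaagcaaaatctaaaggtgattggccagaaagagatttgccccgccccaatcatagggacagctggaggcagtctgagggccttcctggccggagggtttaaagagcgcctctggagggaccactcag

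The factors upstream of these targets did not pass the test. Atf4 stood at 207, 193 and 158 CPM against 204 and 196 CPM (log2 0.05, adjusted p = 0.843), Ddit3, which encodes CHOP, at 32.1 to 38.9 CPM against 33.5 and 36.1 CPM (adjusted p = 0.788), and Xbp1 at 126 to 144 CPM against 129 and 131 CPM (adjusted p = 0.574). The sets overlapped in all 3. Hspa5, the endoplasmic reticulum chaperone BiP, stood at 892, 877 and 798 CPM against 806 and 769 CPM (log2 -0.17, adjusted p = 0.359). None of 10 sensors and transcription factors of the unfolded protein response was called, nor any of 23 chaperones and degradation genes, by edgeR or by DESeq2. Unadjusted p-values below 0.05 were found for 1 and 6 of them. Without replicate 3, 5 of the sensors and factors rose, among them Ern1, which encodes the sensor IRE1 (11.8, 12.97 and 31.9 CPM against 28.3 and 26.5 CPM; log2 1.09, adjusted p = 0.00072), whereas 3 chaperone genes rose and 6 fell, Hspa5 among the latter (log2 -0.23, adjusted p = 0.0437). In Ern1 replicate 3 lay with the 3 week libraries and replicates 1 and 2 did not.

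The other genes with the largest rises at moderate level came from several functions. Tox2 (chr2:163203125-163324170), an HMG box transcription factor, stood at 2.28, 1.80 and 3.33 CPM in the 1 week set and at 8.99 and 10.6 CPM in the 3 week set (log2 1.94 ± 0.24, adjusted p = 0.00314). Marco (chr1:120474538-120505024), a scavenger receptor for bacteria and particles, stood at 4.20, 6.38 and 3.98 CPM against 15.8 and 13.9 CPM (log2 1.58 ± 0.17, adjusted p = 0.00184). Hmga2 (chr10:120361275-120476469), an architectural chromatin protein of self-renewing cells, stood at 11.9, 15.3 and 15.4 CPM against 39.2 and 41.0 CPM (log2 1.46 ± 0.14, adjusted p = 0.000936). Absence of overlap was part of the rule that named the largest rises, so it is not a result for these genes. Cacna1a, a calcium channel subunit, stood at 7.37, 9.70 and 13.2 CPM against 31.4 and 31.3 CPM (log2 1.60 ± 0.21, adjusted p = 0.00367). Dab2, an endocytic adaptor, stood at 78.0, 92.2 and 138 CPM against 281 and 269 CPM (log2 1.38 ± 0.20, adjusted p = 0.00726). The remaining genes of the 12 largest rises, beside Asns, Phgdh and Mmp9, were the tetraspanins Tspan32 and Cd81, the bone matrix and microglia gene Tmem119 and the transcription factor Dach1, at log2 1.69, 1.25, 1.28 and 1.22 (adjusted p = 0.00488, 0.0134, 0.00465 and 0.0188). The 12 largest falls were Itga2b, Prg2, Chil3, Ltf, Plac8, Ngp, Camp, Lcn2, Mpo and S100a9, described above, with Ctla2a, a cathepsin L inhibitor-like gene (log2 -3.17 ± 0.29, adjusted p = 0.000936), and F5, which encodes coagulation factor V (log2 -3.02 ± 0.47, adjusted p = 0.00926). Of these 12 genes, 8 are on the neutrophil or the monocyte and progenitor list. Nrgn and Rab27b, chosen after their values were seen, fell further at lower levels (log2 -5.45 and -5.08, adjusted p = 0.000936 and 0.000636).

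Macrophage effector genes moved in smaller steps. Of 20 tested genes of complement and the clearance of dead cells, 5 fell and 1 rose. C1qa and C1qb, chains of the complement recognition protein C1q, stood at 310, 313 and 455 CPM against 198 and 232 CPM and at 1191, 1239 and 1236 CPM against 846 and 959 CPM (log2 -0.79 ± 0.16 and -0.48 ± 0.09, adjusted p = 0.0271 and 0.0238). Axl, a receptor for dead cells that interferon induces, stood at 221, 224 and 396 CPM against 134 and 123 CPM (log2 -1.17 ± 0.22, adjusted p = 0.0202), and Havcr2, which encodes TIM-3, rose by 0.88 (adjusted p = 0.0308). Replicate 3 was the highest library for C1qa and Axl. Of 20 lipoprotein and LXR target genes, 4 fell and 1 rose. Apoe (chr7:19696109-19699188), the lipid carrier apolipoprotein E, stood at 9204, 10720 and 9876 CPM against 5007 and 6070 CPM (log2 -0.89 ± 0.12, adjusted p = 0.00495). Scd2, a fatty acid desaturase, stood at 81.0, 68.2 and 69.5 CPM against 186 and 158 CPM (log2 1.19 ± 0.11, adjusted p = 0.000936), while Scd1, its paralog, fell by 0.84 (adjusted p = 0.0475). Fabp4 and Fabp5, fatty acid-binding proteins, fell by 0.62 and 0.51 (adjusted p = 0.0189 and 0.0291). In BMSC controls Scd2 ran the other way, at 796, 931 and 1047 CPM against 246 and 290 CPM, and its interaction was 2.88 (adjusted p = 8.12e-07). Srebf2, the regulator of sterol synthesis, was the one called gene of 22 in the cholesterol list (log2 0.61 ± 0.13, adjusted p = 0.0329), whereas 19 of 23 fell in BMSC (559 of 15550 genes, 3.59%, were called lower) and 17 of 23 had a positive interaction. Without 1 week replicate 3, 6 complement genes fell and 4 rose, 8 lipoprotein genes fell and 2 rose, and 5 cholesterol genes rose and 1 fell. Without 1 week replicate 2, 3 complement genes and 1 lipoprotein gene fell, 1 lipoprotein gene rose, and no cholesterol gene was called. Without 3 week replicate 1 or 2 no complement or cholesterol gene was called, and 1 and 2 genes of the lipoprotein list.

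Scavenger and lectin receptors split, with 2 of 20 higher and 3 lower, where 1.55% of all genes were called higher and 2.41% lower. Beside Marco, Cd36, a receptor for oxidised lipids, rose from 3938, 3771 and 3723 CPM to 5416 and 4865 CPM (log2 0.39 ± 0.09, adjusted p = 0.0383). Clec7a, the beta-glucan receptor dectin-1, fell by 0.40 (adjusted p = 0.0461), and Cd209f and Timd4 fell by 2.78 and 1.56 (adjusted p = 0.0315 and 0.0432). Cd163, the haemoglobin scavenger receptor, showed replicate 3 apart from all others, at 9.93, 12.9 and 52.9 CPM against 11.1 and 10.6 CPM (adjusted p = 0.289). Mrc1, the mannose receptor, stood at 300, 360 and 612 CPM against 572 and 568 CPM. It was not called with all 5 libraries (adjusted p = 0.402) and was called higher without replicate 3 (log2 0.73, adjusted p = 0.00023). Leaving out replicate 3 gave 6 receptors higher and 4 lower, and leaving out 3 week replicate 1 or 2 gave 1 higher and none lower.

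Osteoclast genes, which the wider study addresses, showed few changes between control sets. Of 22 tested, 1 rose and 1 fell, where 1.55% of all genes were called higher and 2.41% lower. Mmp9 (chr2:164940780-164955850), the gelatinase of osteoclasts and macrophages, stood at 39.6, 32.5 and 30.9 CPM in the 1 week set and at 85.6 and 82.3 CPM in the 3 week set (log2 1.24 ± 0.16, adjusted p = 0.0035). Car2, the carbonic anhydrase used for bone acidification, stood at 5.77, 6.54 and 5.85 CPM against 3.54 and 2.73 CPM (log2 -0.99 ± 0.19, adjusted p = 0.0202). The sets were separate for both, which the rule that named Mmp9 had asked for. Acp5, tartrate-resistant acid phosphatase, stood at 46.4, 47.4 and 37.0 CPM against 31.5 and 35.6 CPM (log2 -0.43, adjusted p = 0.243), and Dcstamp, needed for osteoclast fusion, at 188, 154 and 126 CPM against 135 and 119 CPM (log2 -0.34, adjusted p = 0.282). Nfatc1, the master factor of osteoclasts, stood at 38.5, 39.7 and 55.6 CPM against 46.8 and 52.3 CPM (adjusted p = 0.726), and Tnfrsf11a, which encodes the receptor RANK, at 86.6 to 94.4 CPM against 109 and 121 CPM (adjusted p = 0.167). Without replicate 3, 3 rose and 5 fell of 22 tested, where 12.7% of all genes were called higher and 10.7% lower. Nfatc1 and Tnfrsf11a were among those that rose (log2 0.28 and 0.29, adjusted p = 0.0424 and 0.0384). Acp5, Ctsk and Dcstamp were among those that fell (log2 -0.54, -0.26 and -0.49, adjusted p = 0.0185, 0.0456 and 0.0053). Of 27 lysosomal genes 4 fell, Hexa, Ctsh, Npc2 and Ctss (log2 -0.49, -0.66, -0.44 and -0.50, adjusted p = 0.012, 0.0139, 0.0237 and 0.0319), and without replicate 3 it was 9 lower and 1 higher. Without 3 week replicate 1 or 2, 0 and 1 osteoclast genes and no lysosomal gene were called.

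Secreted inflammatory and matrix genes moved in both directions. Of 24 chemokines and receptors 6 fell and 2 rose. Ccl2 and Ccl7, ligands of CCR2, rose from 13.7, 11.01 and 18.2 CPM to 30.01 and 30.3 CPM (log2 1.03 ± 0.18, adjusted p = 0.0136) and by 0.65 (adjusted p = 0.0269). Cxcl9 and Cxcl10, interferon-induced ligands of CXCR3, fell by 2.24 and 1.65 (adjusted p = 0.0358 and 0.0373), and Ccl5 by 2.09 (adjusted p = 0.0271). Cxcl2, a neutrophil attractant, stood at 4.42, 3.54 and 5.29 CPM against 2.26 and 1.94 CPM (log2 -1.12 ± 0.20, adjusted p = 0.0186). Cxcr4, the receptor that holds cells in marrow, stood at 78.1, 94.1 and 107 CPM against 45.5 and 53.5 CPM (log2 -0.95 ± 0.16, adjusted p = 0.0111). Of 22 tested NF-kB inflammatory genes, 2 rose and 3 fell, and without 1 week replicate 3, 5 rose and 5 fell. DESeq2 called 3 of the 22 higher and 5 lower. Il1b and Saa3, strongly inflammation-induced genes, were at 2.31 to 3.47 CPM and 2.55 to 4.39 CPM over all 5 libraries and were not called (adjusted p = 0.728 and 0.47). In the 1 week hypergravity libraries, given as a description, they stood at 1379 and 1502 CPM and at 17220 and 17870 CPM. Of 19 genes of the list of metalloproteinases and inhibitors, 3 rose, Mmp9, Adam8 and Plau (log2 1.24, 0.52 and 0.73). Plau encodes a serine protease that the list also holds. In the same list 4 fell, Mmp8, Mmp13, Mmp14 and Timp3 (log2 -0.94, -0.56, -1.17 and -2.81). Leaving out 1 week replicate 3 gave 10 chemokine genes lower and 4 higher, and 6 genes of the metalloproteinase list lower and 3 higher. With the controls alone 1 chemokine gene was called, lower, and 3 genes of the metalloproteinase list were lower and 1 higher. Without 3 week replicate 1 or 2 no chemokine gene was called, and 1 and 3 genes of the metalloproteinase list. Pdcd1lg2 (PD-L2), Gsr (glutathione reductase), Nr1d2 (a clock repressor) and Sgk1 (a kinase induced by glucocorticoids) were the called genes of the alternative activation, iron and NRF2, clock and glucocorticoid lists, beside Chil3 and Lcn2, and fell by 1.04, 0.52, 0.55 and 0.68 (adjusted p = 0.0432, 0.0138, 0.023 and 0.00896). When 1 week replicate 3 was left out, these 4 lists held 11, 24, 17 and 13 tested genes. Of these, 3, 4, 1 and 3 were called lower and 1, 2, 1 and 2 higher. Of all genes in that fit, 10.7% were called lower and 12.7% higher.

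**Figure D5:**
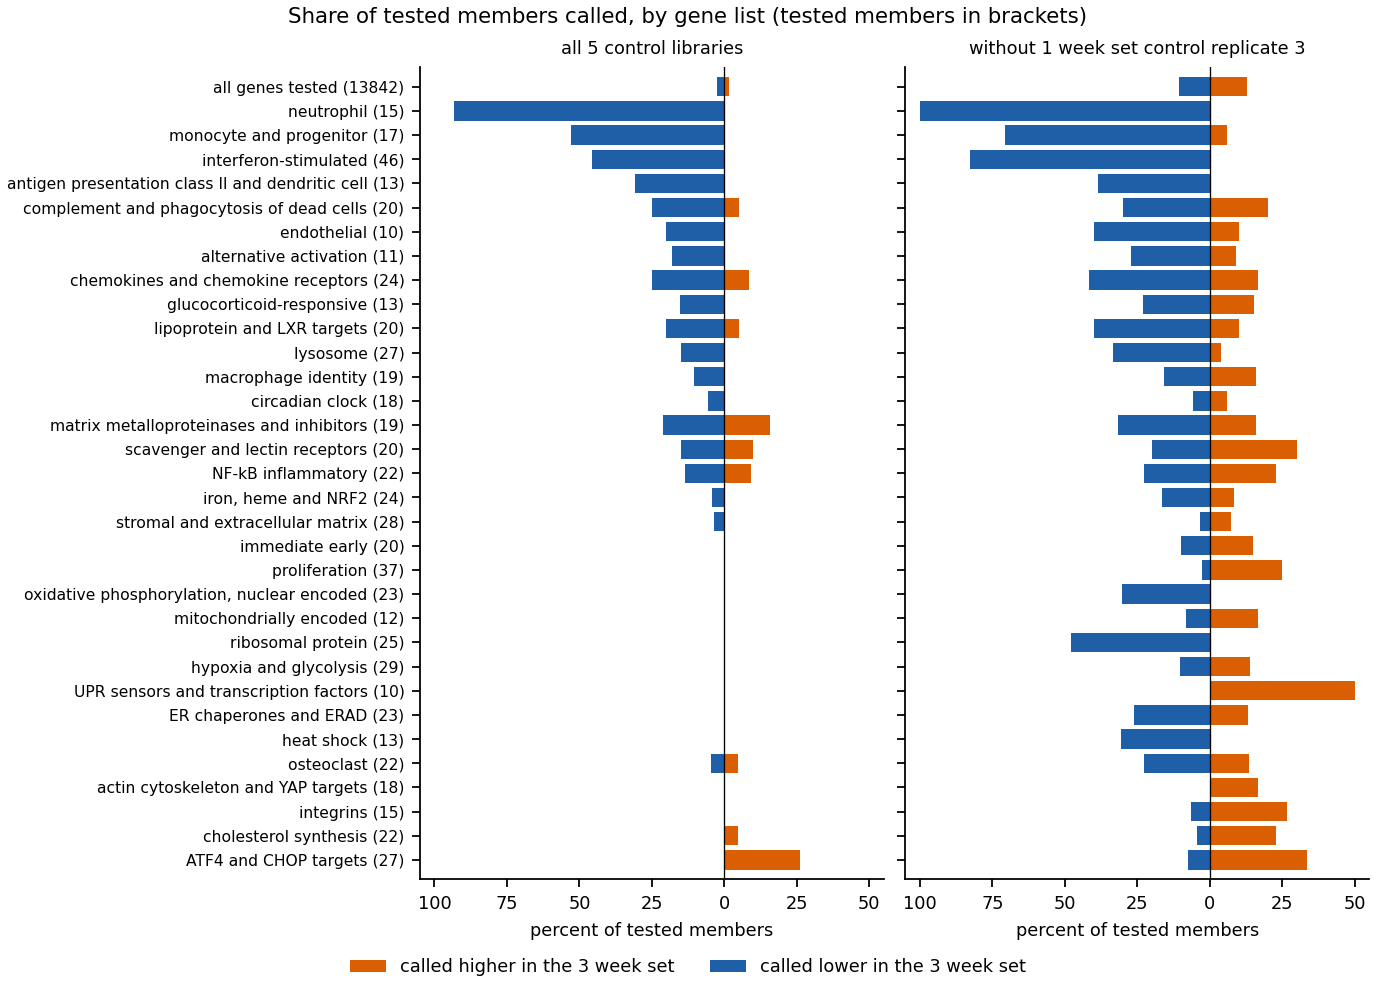
Percent of tested members called higher (right) or lower (left) in the 3 week set for each list with at least 10 tested genes and for all 13842 tested genes, with all 5 control libraries (left panel) and without 1 week replicate 3 (right panel). The neutrophil, monocyte and interferon lists lead on the lower side in both panels, and the unfolded protein response, ribosomal and proliferation lists hold called genes in the right panel alone.

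Core cellular machinery held no gene called by edgeR with all 5 libraries. That covered 37 proliferation genes, 25 ribosomal protein genes, 23 nuclear genes of oxidative phosphorylation, 12 mitochondrially encoded genes, 29 hypoxia and glycolysis genes, 13 heat shock genes, 20 immediate early genes, 18 genes of actin and YAP, and 15 integrins, a list that does not hold Itga2b. Median log2 differences lay between -0.17 and 0.28. Some mitochondrially encoded genes had few counts, ATP8 with means of 0.133 CPM in the 1 week set and 0.814 CPM in the 3 week set. Unadjusted p-values below 0.05 were found for 13, 2, 1, 4, 5, 5, 5, 5 and 6 genes of these lists in the order given, and DESeq2 called 2, 0, 1, 0, 2, 0, 1, 2 and 1. Without replicate 3, 9 proliferation genes rose and 1 fell, with Mki67 and Top2a at log2 0.78 and 0.75 (adjusted p = 0.00124 and 0.00164). Mki67 stood at 58.6, 66.4 and 98.4 CPM in the 1 week set against 123 and 100.3 CPM, and Top2a at 70.3, 62.2 and 89.9 CPM against 128 and 105 CPM. In that fit 12 ribosomal protein genes and 7 oxidative phosphorylation genes fell and none rose. Reads of ribosomal protein genes can be split with near-identical pseudogenes. With all 5 libraries, pseudogenes made up 6.18% of tested genes but 25 of the 215 higher calls (11.6%) and 2 of the 334 lower calls (0.599%). Their share of counts overlapped between the sets, at 0.789% to 0.971% in the 1 week set and 0.881% to 0.896% in the 3 week set. Whether the called pseudogenes are copies of ribosomal protein genes, and what part split reads have in any call, was not tested.

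Some genes best known from red cells and liver rose at low level. Hbb-bs, a beta globin of red cells, stood at 0, 0 and 0.0504 CPM in the 1 week set and at 5.45 and 5.96 CPM in the 3 week set, which is 231 against 1 count, a ratio of 396 (95% interval 70.3 to 15700). Hba-a1, an alpha globin, stood at 0.481, 0.436 and 0.756 CPM against 4.03 and 4.32 CPM (log2 2.86 ± 0.29, adjusted p = 0.00121), and Hbb-bt at 0.0641, 0.164 and 0.202 CPM against 1.82 and 1.39 CPM (log2 3.49 ± 0.46, adjusted p = 0.00401). Alas2 and Slc4a1, erythroid genes of haem synthesis and anion exchange, had 7 and 14 counts in the 3 week set against 0, and Gata1, a factor of both red cells and megakaryocytes, fell from 70 to 2 counts (ratio 20.4, 95% interval 5.45 to 172, adjusted p = 0.0228). Of 6 tested erythroid genes 3 rose and 1 fell with all 5 libraries, 4 rose and 1 fell without 1 week replicate 3, and 2 and 3 rose without 3 week replicates 1 and 2. Globin copies are near-identical, so their split between Hbb-bs and Hbb-bt or among alpha globins is uncertain. Genes of liver plasma proteins, looked for after the values were seen, were present in the same libraries. Alb, serum albumin, stood at 0, 0 and 0.0504 CPM against 3.64 and 4.77 CPM, or 170 against 1 count (ratio 291, 95% interval 51.6 to 11570), and Ahsg, fetuin A, had 32 counts against 0, which is at least 18.3-fold higher if 3 counts are taken for the whole 1 week group. The sum of 16 such genes was 0.252 to 0.769 CPM in the 1 week BMDM controls and 6.93 and 7.94 CPM in the 3 week ones.

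These low-level transcripts were present in hypergravity and BMSC-labelled libraries of the 3 week set too. Alb stood at 0 CPM in both 1 week hypergravity BMDM libraries and at 4.01 and 3.72 CPM in the 3 week ones, and at 0 to 0.077 CPM in the 1 week BMSC controls against 4.41 and 4.87 CPM in the 3 week BMSC controls. Hbb-bs stood at 5.77 and 5.64 CPM in the 3 week hypergravity BMDM libraries and at 4.96 and 4.66 CPM in the 3 week BMSC controls. The imprinted genes H19 and Igf2, highly expressed in fetal liver, stood in BMDM at 0 to 0.128 CPM against 2.06 and 2.53 CPM and at 0 to 0.0504 CPM against 0.344 and 0.546 CPM (adjusted p = 0.00274 and 0.031). The levels of Alb and of Hbb-bs were thus close in every 3 week library named here. What part these transcripts' source has in the other rises was not tested. Xist was at 0.0641 to 0.109 CPM and Ddx3y at 49.6 to 91.3 CPM in all 5 control libraries, so the sets did not separate by these sex-linked genes.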

How the data were processed

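RNA sequencing counts of 46095 gene symbols were deposited by the authors as raw whole-number counts, 1 column per library, and were used as they stand. The submitters' processing notes name HISAT2 2.0.4 and the build mm10; which counter, gene annotation and strand setting were used is not given in the sources used here. Overlapping, antisense and near-identical genes are therefore uncertain. Libraries were grouped by title into 8 groups, and no column was left without a sample. The main test was edgeR 4.0.16 (R 4.3.3, limma 3.58.1): TMM scaling, filterByExpr, and the quasi-likelihood test over the 9 BMDM libraries with 1 coefficient per group and no covariate, which left 5 residual degrees of freedom and 13842 genes. The contrast was the 3 week minus the 1 week control mean. The difference between cell types came from the same model over all 19 libraries (15550 genes). Adjusted p-values are Benjamini-Hochberg over all genes tested and are from edgeR unless DESeq2 1.42.0 is named. CPM are counts per 1e6 counts of the raw library total; log2 differences follow TMM, whose factors were 1.02 to 1.07 in the 5 controls. SE is the absolute log2 difference divided by the square root of the F statistic of the quasi-likelihood test, so it restates that test. Ratios of genes with at most 3 counts in a group carry exact 95% intervals. The procedure was tested on simulated data with known changes.

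The members, 40 gene lists and tests were chosen with earlier results of these data known. Named genes are the 12 largest rises and 12 largest falls among called genes of at least 5 CPM whose sets do not overlap, up to 3 called genes of each list by smallest p, 25 fixed genes, and the 4 largest interactions of each sign; further list members, Nrgn, Rab27b, H19, Igf2 and the liver genes were chosen after their values were seen. Alternatives were DESeq2, 2 other scalings, 2 other filters, a tested log2 difference of at least 1, the controls alone, all 19 libraries, a replicate block, and each control library left out. Trends on exonic length and GC content and protein-coding genes alone were chosen after seeing the data. Positions were matched by symbol to GENCODE for 34544 symbols; promoters come from RefSeq (GRCm38.p6). Some list members are counted but not reported singly here.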

Additional observations from a re-analysis of the deposited data

Results flagged for a closer look

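The set difference of controls differed between BMDM and the libraries labelled BMSC by a test of the difference itself (an interaction term in edgeR) for 1231 genes. The 8 with the largest interactions at 5 CPM or more are given here as values. The interaction was negative for Slfn1 (-6.12), Prg2 (-5.90), Oasl1 (-5.69) and Pydc3 (-5.59), a pyrin domain gene at 9.29, 8.45 and 26.2 CPM against 4.86 and 5.36 CPM in BMDM and at 0.423 to 1.39 CPM against 9.92 and 13.5 CPM in BMSC. Prg2 stood in BMSC at 20.8, 32.3 and 16.9 CPM against 54.2 and 55.6 CPM. It was positive for Scd2 (2.88), Tox2 (2.37), Xylt1 (2.23) and Ago2 (2.11). For Xylt1, a xylosyltransferase of proteoglycan synthesis, and Ago2, the slicer Argonaute, 1 week BMDM replicate 3 lay with the 3 week libraries: Ago2 stood at 14.9, 18.5 and 69.5 CPM against 66.4 and 66.7 CPM, and Xylt1 at 6.19, 7.85 and 27.0 CPM against 28.8 and 29.5 CPM. Their interactions were near the threshold (adjusted p = 0.0359 and 0.0435). Without 1 week BMDM replicate 3 the Xylt1 interaction was 3.17 and the Ago2 interaction 3.12 (adjusted p = 9.08e-05 and 1.83e-05). They were not called with the controls alone (adjusted p = 0.0738 and 0.0972) or without any 1 of the 4 libraries of the 3 week set (adjusted p = 0.104 to 0.134 for Xylt1 and 0.121 to 0.15 for Ago2). Both were also not called without 1 week BMDM replicate 1 or 2 or 1 week BMSC replicate 1, and Ago2 without 1 week BMSC replicate 2 or 3. The call of Tox2 ended without 3 week BMSC replicate 1 (adjusted p = 0.0675). For a log2 difference of at least 1, Tox2, Xylt1 and Ago2 were not called (adjusted p = 0.148, 0.385 and 0.478). The interactions of the other 5 genes were called under each alternative that was run.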

How the results depend on the processing

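Of the 549 genes called in the BMDM controls (215 higher, 334 lower), counts moved by over 1.5 times as follows. DESeq2 called 850 (533 lower), no count filter 1476 (709 higher, 767 lower), a tested log2 difference of at least 1 called 51 (8 and 43), the controls alone 148 (41 and 107) and removal of the length trend 896 (350 and 546). Leaving out 1 library gave 39 to 3222 (14 to 1748 higher, 25 to 1474 lower). The interaction count of 1231 (444 positive, 787 negative) became 1942 with DESeq2 (895 positive), 2181 with no filter (1055 positive), 183 at a log2 difference of at least 1 (10 and 173) and 686 with the controls alone (193 and 493). Library size alone gave 807 positive (58.2% positive in place of 36.1%) and moved the median of all genes from -0.052 to 0.096. Leaving out 1 library gave 466 to 3158 (110 to 1479 positive, 352 to 1679 negative). The BMSC count of 1373 (814 higher, 559 lower) became 2608 with no filter (1455 lower), 66 at a log2 difference of at least 1 (59 and 7) and 435 with the controls alone (266 and 169). DESeq2 called 977 lower, and leaving out 1 library gave 247 to 2513 (192 to 1400 higher, 55 to 1113 lower). No BMDM or interaction call changed sign under these alternatives, and 1 BMSC call did, without 3 week BMSC replicate 2.

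With the replicate number as a block the BMDM count was 3140 (1757 higher, 1383 lower), the interaction count 1238 and the BMSC count 1389. The numbers are not shown to pair libraries: deviations of same-numbered BMDM libraries correlated at 0.029 and 0.034 over 2 pairs. Number 3 occurs in BMDM in 1 library alone, so the block absorbs 1 week replicate 3, and its count is near the 3222 called without that library. With 2 or 3 libraries a group and totals of 18.35 to 31.21 M counts (1e6 counts), low genes are known from few counts, and their ratios have wide intervals.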
